A study of Mus musculus with 2 samples.

Results

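Interferon-response neutrophils were mature neutrophils of the mouse alveolar bone, the part of the jaw that holds the teeth, in which transcripts of interferon-induced genes made up a measurable share of the RNA. They were chosen from single-cell RNA libraries by measured values. A barcode, which stands for 1 droplet and normally for 1 cell, was a member when S100a8 and S100a9 made up at least 5% of its unique molecular identifiers (UMIs, each a counted RNA molecule), when Elane, Mpo, Prtn3 and Ctsg stayed under 1%, Mki67, Top2a, Birc5 and Ube2c under 0.04%, and Camp, Ltf and Ngp under 3%, and when Isg15, Ifit1, Ifit3 and Rsad2 together reached 0.1%. This rule found 164 members among 4887 kept barcodes, 108 of 2835 in the control library and 56 of 2052 in the OTM library. The 354 control and 418 OTM barcodes that met every step except the last, with an interferon share under 0.1%, are called other mature neutrophils. Members made up 3.81% of kept barcodes in control and 2.729% in OTM, and all mature neutrophils 16.3% and 23.1%. A total of 6 barcode sequences occurred in both libraries, none of them a member.

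Both libraries came from mice with an age of 8 weeks. The control library held alveolar bone cells of mice without force, and the OTM library, labelled as the case sample, held those of mice whose first molar had been pulled by a device for orthodontic tooth movement (OTM). Cells had been sorted as F4/80+CD11b+, and the labels call them macrophages, but the members carried the neutrophil genes Retnlg, Mmp8, Ly6g, Csf3r and Cxcr2, and neutrophils and monocytes also carry CD11b. A gate on F4/80, a macrophage antigen, would be thought to remove most neutrophils, and Adgre1, which encodes it, stood at 54.45 counts per 1000000 UMIs in control members and 41.36 in OTM members, against 110 and 125.2 in interferon-response monocytes. How neutrophils came through the gate was not tested. Each condition was 1 library with no replicates, the study's methods give the number of mice for both groups together but not for each library, and cells of 1 library are not replicates, so no p-value was computed. A difference between the libraries cannot be told apart from a difference between the mice or the 2 preparations. Intervals below are 95% intervals that cover counting error only.

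Neutrophils are short-lived phagocytes that leave the marrow with granules of antimicrobial proteins already made. Type I and type II interferons bind receptors on nearly every cell, and the receptor-bound kinases JAK1, JAK2 and TYK2 then activate transcription factors in the cytoplasm. After type I interferon these act together with IRF9 on the interferon-stimulated response element, and after type II interferon mainly on another promoter element. The products of the interferon-stimulated genes bind or cut viral RNA, tag proteins, load antigen and draw in lymphocytes. A minor fraction of neutrophils with this expression programme is known from blood, marrow and inflamed tissue of mice and humans.

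The rule used 4 of these genes. Isg15 encodes a ubiquitin-like protein that is attached to other proteins, Ifit1 and Ifit3 encode partner proteins that bind foreign RNA ends, and Rsad2 encodes viperin, which makes a chain-terminating nucleotide. Their promoters are shown because all 4 held the core letters of the response element. The search used GAAANNGAAA on both strands, so that TTTCNNTTTC also counted, in windows from 250 bases before to 50 after each RefSeq start in build GRCm38.p6. Capitals mark the matched letters and each stretch runs 5′ to 3′ along its gene. In Isg15 (chr4:156200855-156200916, minus strand) 3 overlapping matches joined into 1 run, the first 78 bases before the start. Ifit1 (chr19:34640765-34640833, plus strand) held matches 104 and 85 bases before its start. Ifit3 (chr19:34583353-34583436, plus strand) held them at 156 and 122 bases, and Rsad2 (chr12:26456543-26456592, minus strand) at 120 bases.
Isg15: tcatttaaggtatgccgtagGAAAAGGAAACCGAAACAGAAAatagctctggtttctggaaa
Ifit1: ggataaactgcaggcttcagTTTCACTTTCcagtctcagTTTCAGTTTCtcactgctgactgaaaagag
Ifit3: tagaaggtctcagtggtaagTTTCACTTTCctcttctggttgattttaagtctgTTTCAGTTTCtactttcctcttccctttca
Rsad2: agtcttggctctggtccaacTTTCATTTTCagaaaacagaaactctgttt

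The same letters were in 1131 of 32851 promoter windows (3.44%), or in 1079 of 27025 genes (3.99%). Of the 15 genes named further down as highest in members of both libraries, 12 had a window and 3 of these (25%) held the letters. They were Gbp2 (chr3:142620584-142620633, plus strand), Cxcl10 (chr5:92349073-92349122, minus strand) and Oas3 (chr5:120777705-120777754, minus strand), with the match 59, 213 and 75 bases before the start, and they are shown because they carried the pattern outside the rule.
Gbp2: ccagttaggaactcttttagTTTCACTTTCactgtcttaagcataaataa
Cxcl10: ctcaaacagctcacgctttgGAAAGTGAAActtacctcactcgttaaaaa
Oas3: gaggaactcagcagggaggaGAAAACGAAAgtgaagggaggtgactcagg

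In a list of interferon-stimulated genes, 31 of 66 genes with a window (47%) held the letters, and in a list of mature neutrophil genes 1 of 31 (3.23%), beside 3.99% of all genes with a window. The windows of Slfn4, Oasl1, Xaf1 and Irf7 did not hold these letters. A match describes the letters only, since binding was not measured here.

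Members held 330606 UMIs in control, with a median of 2435.5 per barcode (range 1784 to 12772) and a median of 701.5 genes. In OTM they held 241754 UMIs, with a median of 3210 (2354 to 20788) and 790 genes. Other mature neutrophils had medians of 2389 UMIs in control and 3576.5 in OTM, close to those of the members. At these depths the threshold was a matter of few molecules. A member carried 2 to 45 UMIs of the 4 genes in control (median 7) and 3 to 31 in OTM (median 6), and the share had a median of 0.2329% in control and 0.1606% in OTM. The 5 members nearest the threshold lay at 0.1% to 0.1035% in control and 0.1006% to 0.106% in OTM. The 5 mature neutrophils just below it lay at 0.09195% to 0.09945% and at 0.08755% to 0.0985%.

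Of mature neutrophils, 108 of 462 in control were members (23.38%, exact binomial interval 19.59 to 27.51) and 56 of 474 in OTM (11.81%, 9.049 to 15.07). When every barcode was first thinned to 1500 UMIs and the rule repeated, the shares were 24.11% and 12.69%. Monocytes were called by their own rule. It asked for S100a8 and S100a9 under 5%, the same limits for protease and cycling genes, and Csf1r, Ccr2, Ly6c2, Fn1, F13a1 and Ms4a6c together at 0.1% or more. Among these, the interferon-response fraction was 73 of 1109 in control (6.583%, 5.195 to 8.206) and 52 of 727 in OTM (7.153%, 5.388 to 9.274). After the same thinning the monocyte fractions were 8.72% and 11.89%. The difference between the libraries was not tested in either cell type, and the intervals count barcodes of 1 library each.

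The size of the neutrophil difference moved with 1 monocyte gene. Ly6c2 encodes a surface protein that is abundant on inflammatory monocytes, is also found on neutrophils and is itself interferon-responsive. It made up at least 0.1% of UMIs in 59 of 108 control members (54.63%, interval 44.76 to 64.24) but in 8 of 56 OTM members (14.29%, 6.375 to 26.22). In other mature neutrophils the counts were 100 of 354 (28.25%) and 92 of 418 (22.01%). Leaving out every mature neutrophil that reached 0.1% in Ly6c2 gave member shares of 16.17% in control (49 of 303, interval 12.21 to 20.81) and 12.83% in OTM (48 of 374, 9.617 to 16.65). With all 6 monocyte genes as the criterion the shares were 16% (40 of 250, 11.68 to 21.14) and 13.18% (41 of 311, 9.629 to 17.46). The control share was thus above the OTM share in both cases, by less than without the step.

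The 5 monocyte genes other than Ly6c2 did not follow this pattern. Csf1r, Ccr2, Fn1, F13a1 and Ms4a6c, which encode the receptor for macrophage colony-stimulating factor, a chemokine receptor, fibronectin, a coagulation factor subunit and a membrane protein, together reached 0.1% in 16 of 108 control members (14.81%) and 8 of 56 OTM members (14.29%). The shares in other mature neutrophils were 14.69% and 17.94%. In interferon-response monocytes they were 97.26% and 98.08%, which the rule for monocytes largely set, since it asked for 0.1% in these genes and Ly6c2. Leaving out mature neutrophils that reached 0.1% in these 5 genes gave member shares of 23.35% in control (92 of 394) and 12.28% in OTM (48 of 391), almost as without the step. What part monocyte RNA or joined cells had in the share was not tested. A doublet caller, Scrublet, marked 2 of 2835 barcodes in control and 4 of 2052 in OTM, none of them a member, which is too few for the caller to have worked.

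**Figure D1:**
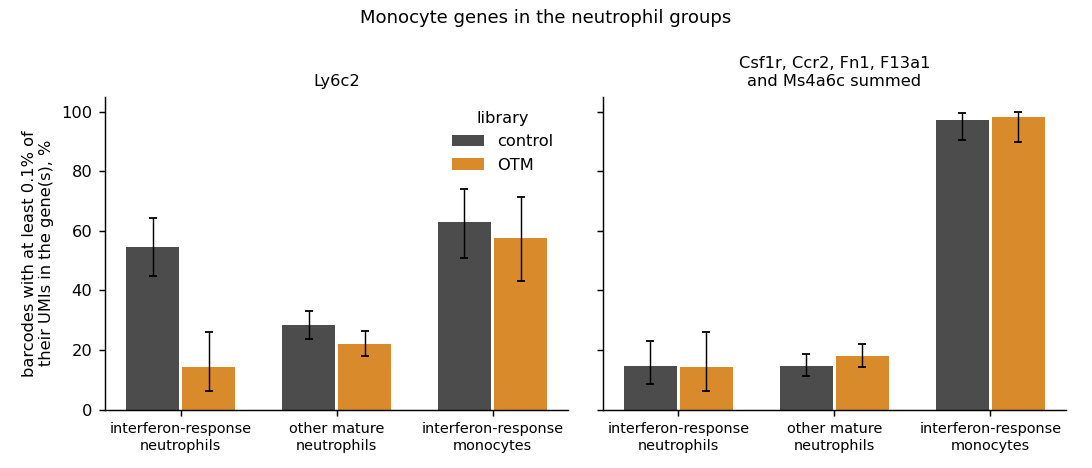
Bars give the percent of barcodes in which the named genes made up at least 0.1% of UMIs, for each group and library, with exact binomial 95% intervals. Ly6c2 separated control members (54.63%) from OTM members (14.29%), whereas the other 5 monocyte genes were near 14% in both. The bars above 97% in interferon-response monocytes follow from the rule that chose monocytes by these genes and Ly6c2.

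Levels are given as CPM, the UMIs of a gene summed over the barcodes of a group and scaled to 1000000 UMIs of that group, so that each counted molecule weighs the same whatever the length of its gene. They describe the groups and test nothing, because the rule itself chose members for interferon transcripts. Deep barcodes weigh more in such sums. Barcodes that reached 0.1% in the 6 monocyte genes held 222050 of 330606 UMIs in control members and 514147 of 1071507 in other mature neutrophils. In OTM they held 91275 of 241754 and 1057247 of 2039779, so the mix differed between the groups. What it did to the ratios of single genes was not tested beyond the alternatives given below. Isg15 stood at 1794 CPM in members and 160.5 in other mature neutrophils of control, and at 1514 and 172.6 in OTM. Ifit3 stood at 272.2 and 8.399 CPM in control, and at 45.5 and 4.412 in OTM. Rsad2 stood at 462.8 and 26.13 CPM in control, and at 157.2 and 17.16 in OTM. Ifit1 stood at 226.9 and 7.466 CPM in control, and at 132.4 and 7.354 in OTM. Ifit3 has a close copy, Ifit3b, so reads of the 2 may have been divided between them.

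The 4 genes contributed unequally in the 2 libraries. Isg15 made up 65.09% of the rule's UMIs in control members and 81.88% in OTM members. Isg15 was the only one of the 4 found in 27 of 108 control members (25%) and in 24 of 56 OTM members (42.86%). All 4 were found together in 17 control members and 2 OTM members. Membership in OTM thus rested more often on Isg15 alone, although OTM members had the higher median depth.

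Slfn4, a Schlafen-family gene of myeloid cells, is a marker of these cells that the rule did not use. It stood at 487 CPM in members and 170.8 in other mature neutrophils of control, a ratio of 2.851 (2.293 to 3.543). In OTM it stood at 177.9 and 92.17 CPM, a ratio of 1.93 (1.352 to 2.7). At least 1 UMI was found in 70 of 108 control members (64.81%) and 29 of 56 OTM members (51.79%), against 32.49% and 32.54% of other mature neutrophils, which have similar depth in each library. In interferon-response monocytes it stood at 131.4 CPM in control and 45.29 in OTM, so that members exceeded them 3.707-fold (2.633 to 5.318) and 3.927-fold (2.194 to 7.344).

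Genes with at least 30 UMIs in the 2 groups together were compared, leaving out every gene that the rule names. Of the genes compared, 127 of 2905 (4.37%) were at least 2-fold higher in members than in other mature neutrophils of control. In control 89 (3.06%) were at least 2-fold lower. In OTM 144 of 3703 (3.89%) were at least 2-fold higher and 394 (10.6%) at least 2-fold lower. From the list of 88 interferon-stimulated genes, 82 were in the count tables. Of these, 46 had enough UMIs in control, where 29 were at least 2-fold higher, none was lower, and the median log2 ratio was 1.23 against 0.0787 over all genes. In OTM 47 had enough UMIs, with 16 higher, 1 lower (Tap2) and a median log2 ratio of 0.62 against 0.0179. Because the rule used this contrast, the counts describe how far the pattern reached beyond the 4 genes and are no evidence that it exists.

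The smaller reach in OTM was seen gene by gene. Of 43 list genes with enough UMIs in both libraries, 35 were higher in members than in other mature neutrophils in both (989 of 2822 among all genes). Of the 43, 13 were at least 2-fold higher in both (21 of 2822 among all genes), and 34 had the larger ratio in control (1542 of 2822 among all genes). Without the mature neutrophils that reached 0.1% in the 6 monocyte genes, fewer genes had enough UMIs. Of the list, 10 of 17 were then at least 2-fold higher in control (median log2 ratio 1.27) and 9 of 27 in OTM (0.87), beside 6.71% and 4.11% of all genes.

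**Figure D2:**
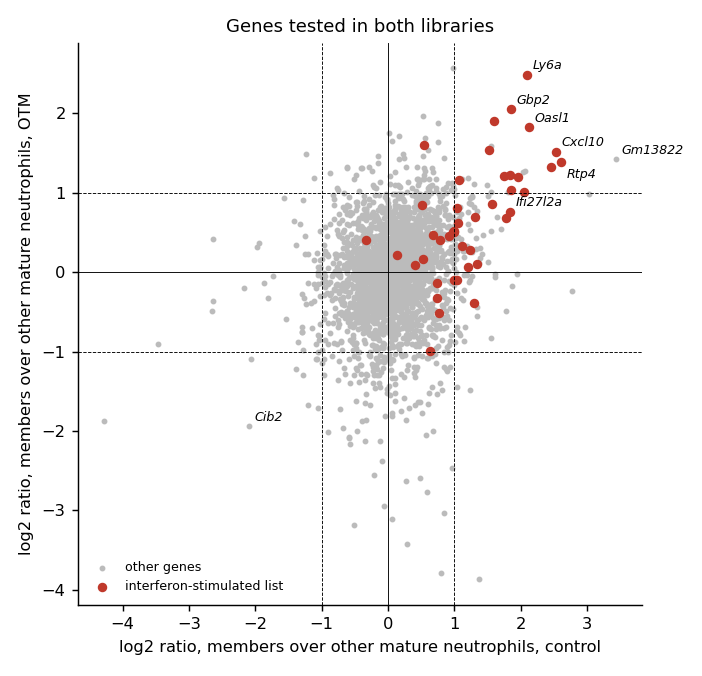
Each point is 1 of the 2822 genes tested in both libraries, placed by its log2 ratio of members over other mature neutrophils in control (horizontal) and in OTM (vertical). Interferon-stimulated list genes, in red, lie mainly to the upper right, with 35 of 43 above 0 on both axes and 34 larger in control.

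Only 21 of 2822 genes were at least 2-fold higher in members of both libraries, and the 15 with the highest smaller ratio are described here. They fell into antiviral effectors, regulators of the interferon response, immune cell signals, and genes without such a role. Rtp4, which encodes a transporter-like protein that dampens interferon signalling and binds viral replication complexes, stood at 372 CPM in members and 60.66 in other mature neutrophils of control (ratio 6.133, 4.505 to 8.416). In OTM it stood at 231.6 and 89.23 CPM (2.596, 1.889 to 3.52). Rtp4 was found in 65 of 108 control members and 30 of 56 OTM members, and no barcode held more than 10.71% of its UMIs. In OTM the difference lay mainly in the 32 members with 2 or more rule genes, at 312.5 CPM, while the 24 with 1 rule gene stood at 98.5 (45.04 to 187), near the other mature neutrophils. In control both kinds stood above other mature neutrophils, at 404.2 and 263.9 CPM.

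Oas3 encodes an enzyme that senses double-stranded RNA and switches on RNase L. It stood at 157.3 and 55.06 CPM in control and at 91 and 31.87 in OTM, and its ratios were nearly equal, 2.857 (1.929 to 4.219) and 2.856 (1.676 to 4.694). Its relative Oasl1, an inhibitor of Irf7 translation in mice, had ratios of 4.385 and 3.498, on 23 and 17 member UMIs, of which 41.18% came from 1 barcode in OTM. Zbp1, a sensor of left-handed nucleic acid that can start cell death, stood at 181.5 and 46.66 CPM in control (ratio 3.889) and at 128.2 and 56.38 in OTM (2.274). Isg20, a nuclease for viral RNA, had ratios of 3.361 and 2.25, and Xaf1, an interferon-induced promoter of apoptosis, 3.025 and 3.616 on 28 and 9 member UMIs.

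Gbp2, a GTPase that attacks the membranes around intracellular microbes and responds strongly to type II interferon, was with Ifitm1 and Ifitm2 among the 3 list genes at least 2-fold higher in OTM members than in control members. It stood at 81.67 CPM in control members and 22.4 in other mature neutrophils (ratio 3.646), and at 173.7 and 42.16 in OTM (4.121, 2.779 to 6.026), and it was also higher in other mature neutrophils of OTM. It was found in 15 of 108 control members and 16 of 56 OTM members, and 37.04% and 23.81% of its UMIs came from 1 barcode.

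The transcription factors Irf7 and Irf9 stood among the 15. Irf7, which amplifies type I interferon production, stood at 314.6 and 56.93 CPM in control (ratio 5.526, 3.99 to 7.71) and at 169.6 and 68.14 in OTM (2.489, 1.712 to 3.549). It was found in 46 of 108 and 26 of 56 members. Irf9, a DNA-binding factor of the interferon pathway, had ratios of 3.582 and 2.264 on 21 and 11 member UMIs, and its OTM ratio fell below 1 when barcodes were thinned before the rule.

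Gm13822, an unnamed transcript, had the highest control ratio of the 15. It stood at 356.9 CPM in control members and 32.66 in other mature neutrophils (10.93, 7.437 to 16.42), and at 74.46 and 28.43 in OTM (2.619, 1.452 to 4.508). It was found in 53 of 108 control members but 11 of 56 OTM members. In GRCm38 it lies on the minus strand of chromosome 5, from 114917318 to 114923277, and overlaps the start of Oasl1 on the plus strand (114923240 to 114937915), beside Oasl2. The counting tool assigns reads by strand, but how reads of the overlap were assigned was not tested. It was also higher in members than in interferon-response monocytes, 356.9 against 100.8 CPM in control (3.54-fold, 2.389 to 5.378), while in OTM the ratio of 1.471 had an interval that included 1 (0.7279 to 2.961).

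Other genes of the 15 rested on few barcodes or few UMIs. Ly6a, which encodes the surface antigen Sca-1, had ratios of 4.294 and 5.572, but 66.04% and 71.43% of its member UMIs came from 1 barcode in each library and it was found in 7 and 5 members. Its ratio was below 1 in control and in OTM when the interferon threshold was doubled to 0.2%. Cxcl10, a chemokine that draws in T cells, had ratios of 5.834 (3.502 to 9.927) and 2.855, was found in 9 of 108 and 10 of 56 members, and 33.33% of its UMIs came from 1 barcode in each. Members with 1 rule gene had 2 Cxcl10 UMIs in each library, at most 1 of Ly6a and of Oasl1, and 2 and 5 of Gbp2, so that these 4 ratios came mainly from members with 2 or more. Blvrb, a biliverdin reductase, had ratios of 2.946 and 2.96, and its control ratio was below 1 without barcodes that reached 0.1% in the monocyte genes. Nrros, a regulator of reactive oxygen and of latent TGF-beta, had ratios of 4.238 and 2.328, and 2310011J03Rik, of unnamed function, 4.094 and 2.301, both with OTM intervals that included 1. Leaving out the highest barcode of each gene in either group brought the count of genes at least 2-fold higher from 127 to 68 in control and from 144 to 43 in OTM. OTM had 56 members and control 108, and why the counts fell, and fell further in OTM, was not tested.

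**Figure D3:**
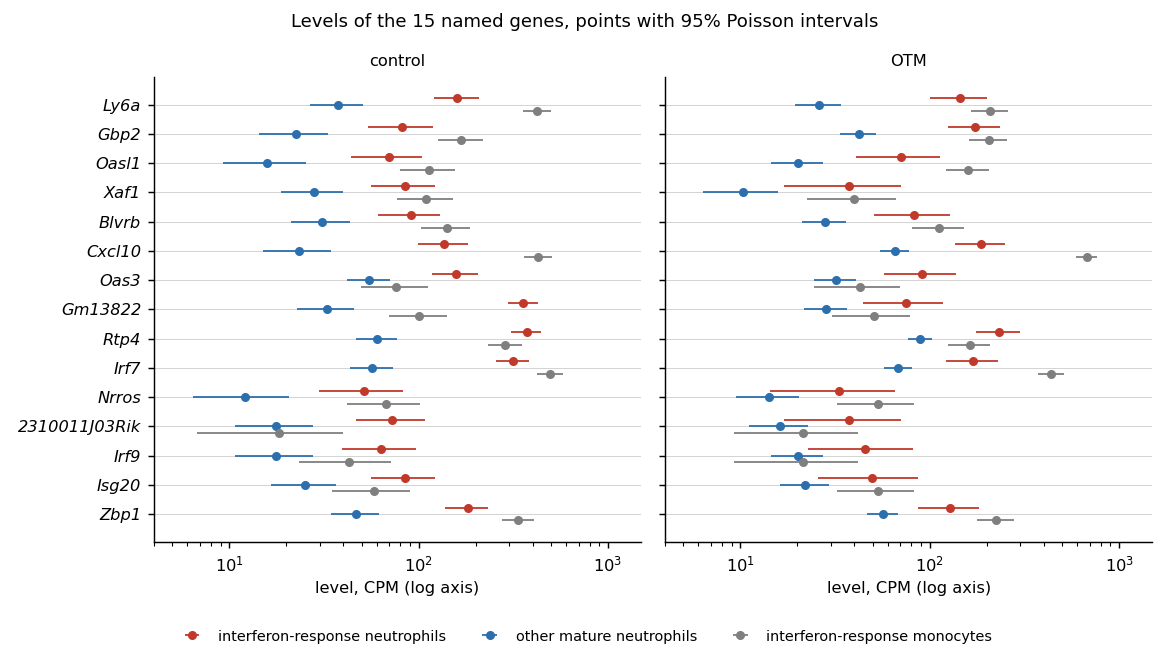
Points give the level in CPM (log axis) of the 15 genes highest in members of both libraries, with exact Poisson 95% intervals, for each group in control and OTM. Members lie to the right of other mature neutrophils for each gene shown, for example Rtp4 at 372 against 60.66 CPM in control.

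Ifi27l2a, which encodes a small interferon-induced membrane protein, was the list gene with the most UMIs in control members. It stood at 6978 CPM there and 1954 in other mature neutrophils (ratio 3.571, 3.364 to 3.79), and at 2614 and 1544 in OTM (1.693, 1.552 to 1.844). It was found in 97 of 108 and 50 of 56 members. Its control level in members under 0.1% of the monocyte genes was 5850 CPM, against 1209 in other mature neutrophils of the same kind, so that the difference was also present there. Usp18, which removes ISG15 from proteins and restrains the receptor, had ratios of 10.44 (4.813 to 25.08) and 10.12 (4.009 to 26.16) on 29 and 12 member UMIs, and Ifit3b 10.8 and 7.835 on 40 and 13. Both had under 30 UMIs over the 2 groups of OTM and so were not among the 15.

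Upstream signalling genes are given next. No interferon gene had enough UMIs. Of 21 interferon genes, only Ifnb1 was seen, with 2 UMIs in control members and none in OTM members. Of 18 receptor and signalling genes, 12 had enough UMIs in each library and 2 were at least 2-fold higher in each, among them Irf9 in both libraries and Ifnar1 in OTM, where 4.37% and 3.89% of all genes were higher. The receptor chain Ifnar1 stood at 45.37 and 51.33 CPM in control and at 99.27 and 38.73 in OTM (2.563, 1.552 to 4.092). Its partner Ifnar2 stood at 87.72 and 83.06 CPM in control and at 99.27 and 96.58 in OTM, and Ifngr1, of the type II receptor, at 108.9 and 97.06 and at 144.8 and 139.2. Ifnar2 and Ifngr1 were thus under 2-fold apart in both libraries.

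Of 11 interferon regulatory factors, 7 had enough UMIs in each library. Irf7, Irf9 and Irf1 were at least 2-fold higher in control, and Irf7 and Irf9 in OTM, where Irf5 was lower on 3 member UMIs. Of all genes, 4.37% were higher and 3.06% lower in control, and 3.89% and 10.6% in OTM. Of 20 sensors and adaptors, Zbp1 and Myd88 of 4 with enough UMIs were at least 2-fold higher in control, beside the same 4.37%. In OTM, Ifih1 and Zbp1 of 7 were higher and Ddx41 lower, beside the same 3.89% and 10.6%. Ifih1, which encodes the RNA sensor MDA5, stood at 51.42 and 6.533 CPM in control and at 53.77 and 15.69 in OTM, and 46.15% of its OTM UMIs came from 1 barcode.

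By the median ratio, genes of class I antigen presentation exceeded other mature neutrophils more in control than in OTM. The median log2 ratios were 0.66 in control and 0.27 in OTM, against 0.0787 and 0.0179 over all genes. Of 18 class I genes with enough UMIs, Psmb9, H2-Q7 and H2-T22 were at least 2-fold higher in control and none lower. In OTM none was higher and 1 (Tap2) lower. Of all genes, 4.37% were higher and 3.06% lower in control, and 3.89% and 10.6% in OTM. B2m, the light chain of every class I molecule, stood at 5541 and 3478 CPM in control (1.593, 1.506 to 1.685) and at 3930 and 3506 in OTM (1.121, 1.046 to 1.199). Psmb9, a subunit of the immunoproteasome, stood at 251.1 and 101.7 CPM in control (2.468) and at 173.7 and 108.8 in OTM (1.596). H2 genes have close copies between which reads may have been divided.

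Class II genes were abundant in few barcodes. Of 6 genes with enough UMIs, H2-Ab1, H2-Aa and Cd74, which present antigen taken up from outside, were at least 2-fold higher in OTM members. In control 0 of 6 were higher. Of all genes, 3.89% were higher in OTM and 4.37% in control. Class II genes reached 1% of UMIs in only 2 of 56 OTM and 4 of 108 control members, against 9 of 418 and 13 of 354 other mature neutrophils. Whether these barcodes held a second cell was not tested.

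Of the Schlafen family, 3 genes had enough UMIs in each library. Slfn1, a regulator of cell growth, was at least 2-fold higher in both libraries (269.2 and 109.2 CPM in control, 198.5 and 92.66 in OTM), while Slfn2 stood at 568.7 and 417.2 and at 1320 and 1009 CPM. None of 4 Ifitm genes, which encode membrane proteins that block virus entry, was 2-fold higher in either library, beside 4.37% and 3.89% of all genes. Ifitm3 was nearest, with 4289 and 2487 CPM in control (1.725, 1.616 to 1.84) and 3661 and 2754 in OTM (1.329, 1.237 to 1.427).

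The number of list genes found in a single barcode, counted after thinning to 1500 UMIs, showed how broad the programme was per cell. The list does not hold the 4 rule genes. Control members carried 2 to 26 of the genes with a median of 9 (quartiles 7 to 12), and other mature neutrophils 0 to 19 with a median of 4. OTM members carried 4 to 13 with a median of 8 (quartiles 6 to 11), and other mature neutrophils 0 to 15 with a median of 5. The groups overlapped in both libraries. The highest count was 26 among 108 control members and 13 among 56 OTM members, and a maximum tends to rise with the number of barcodes. Members with 1 rule gene had a median of 6 in both libraries, and those with 2 or more had 10 in control and 9.5 in OTM. In members under 0.1% of the monocyte genes the median was 8 in both libraries, against 3 and 5 in other mature neutrophils of the same kind. Without thinning the medians were 12 against 6 in control and 13 against 9 in OTM. In interferon-response monocytes the medians after thinning were 15 and 12. Other monocytes, with an interferon share under 0.1%, had 8 and 9, close to the members, so that this count of genes does not mark members off from monocytes in general.

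**Figure D4:**
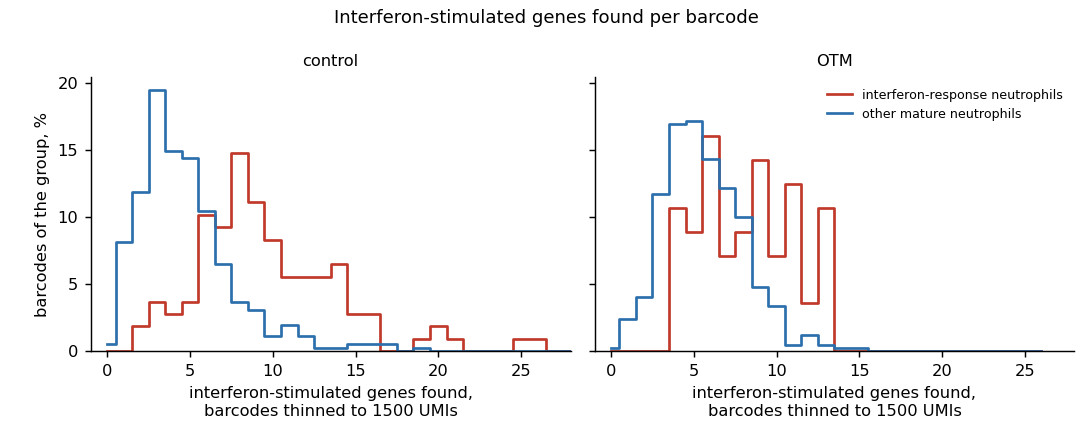
Lines give the percent of barcodes in each group that carried a given number of interferon-stimulated list genes after thinning to 1500 UMIs, for control and OTM. Members peak to the right of other mature neutrophils (medians 9 against 4 in control, 8 against 5 in OTM), and the groups overlap.

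Mature neutrophil genes were compared in the same way. Of 39 mature neutrophil genes none was at least 2-fold higher and 1 (Stfa1) lower in control, and 1 (Asprv1) was higher and 1 (Stfa1) lower in OTM, with median log2 ratios of 0.0259 and 0.26. The shares over all genes were 4.37% higher and 3.06% lower in control and 3.89% and 10.6% in OTM. Retnlg, a resistin-like protein gene of mature neutrophils, stood at 36400 and 46815 CPM in control and 42874 and 42621 in OTM. Ly6g, the usual surface marker, stood at 480.9 and 510.5 CPM in control and at 430.2 and 461.8 in OTM. Csf3r, the receptor for granulocyte colony-stimulating factor, stood at 471.9 and 289.3 CPM in control and at 343.3 and 224 in OTM. Cxcr2, the receptor for neutrophil-drawing chemokines, stood at 205.7 and 123.2 CPM in control and at 173.7 and 136.3 in OTM. The granule genes that the rule limits were lower in members. Camp, Ltf and Ngp together had a median share of 0.3603% in members and 0.7711% in other mature neutrophils of control, and of 0.2547% and 0.6256% in OTM.

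Markers of other cells gave the following values. Of 25 monocyte and macrophage markers 21 had enough UMIs, and their summed level was 5904 CPM in members and 4571 in other mature neutrophils of control, and 5559 and 5338 in OTM. In control 1 (C1qc) was at least 2-fold higher and 2 lower, where 4.37% of all genes were higher and 3.06% lower. C1qc had 19 UMIs in 5 of 108 control members, 68.42% of them in 1 barcode. In OTM none was higher and 8 were lower, Fn1, F13a1 and the 3 C1q genes among them. Of all genes in OTM, 3.89% were higher and 10.6% lower. Csf1r stood at 81.67 and 85.86 CPM in control and at 91 and 69.62 in OTM, against 229.2 and 178.5 in interferon-response monocytes. Control members under 0.1% of the 6 monocyte genes, in which those genes were low by selection, had Retnlg at 36424 CPM and Isg15 at 1925 CPM. Control members at 0.1% or more had 36388 and 1729 CPM. In OTM members Retnlg and Isg15 stood at 53210 and 1861 CPM under 0.1%, and at 25834 and 942.2 at 0.1% or more. Markers of lymphoid and dendritic cells summed to 10 UMIs in control members and 11 in OTM members. The 3 hemoglobin genes with enough UMIs were at least 2-fold higher in control members, where 1 barcode had 17.57% of its UMIs in hemoglobin and 84.11% of all member Hba-a1 UMIs came from 1 barcode.

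Chemokine and cytokine genes of members were mixed. In control, Cxcl10, Tnfsf13b and Ccl5 of 20 genes with enough UMIs were at least 2-fold higher and Il6, Cxcl3 and Ccl7 lower, where 4.37% of all genes were higher and 3.06% lower. Ccl5 rested on few members, with 79 UMIs in 6 of 108 and 58.23% of them in 1 barcode. In OTM, Cxcl10 and Ccl12 of 21 were higher and Ccl7 lower, but Ccl12 had 18 UMIs in 2 of 56 members, 94.44% of them in 1 barcode. Of all genes in OTM, 3.89% were higher and 10.6% lower. Tnfsf13b encodes the B-cell survival factor BAFF and stood at 45.37 and 22.4 CPM in control and at 24.82 and 15.69 in OTM. Il1b, an inflammatory cytokine gene, stood at 3070 and 2283 CPM in control and at 6486 and 4618 in OTM. Members were above other mature neutrophils in both libraries, but under 2-fold.

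Among the 10 genes lowest in members of both libraries, most had few UMIs, and 4 changed direction in OTM under another setting. Cib2, a calcium-binding protein gene, had 3 member UMIs against 48 in control and 1 against 48 in OTM. F13a1 stood at 30.25 and 66.26 CPM in control (0.4565, 0.2099 to 0.8895) and at 82.73 and 181.9 in OTM (0.4548, 0.2746 to 0.7128), but its OTM log2 ratio was 0.75 without barcodes that reached 0.1% in the 6 monocyte genes, of which it is 1. Ccl7, a monocyte-drawing chemokine, had ratios of 0.2069 and 0.4375. The cell-cycle gene 2810417H13Rik had 0 UMIs against 31 in control, at least 3.188-fold lower with 3 counts as the floor, and 2 against 77 in OTM, where its log2 ratio was 0.83 without those barcodes. Dars, Slc25a24, Ppp2r5c, Cyfip2, Me2 and Tmed3 completed the 10, each with at most 10 member UMIs in either library. In OTM, Cyfip2 was no longer lower with an interferon threshold of 0.05% (log2 ratio 0.0534), nor Ppp2r5c after thinning before the rule (0.32).

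Members were also set beside interferon-response monocytes. The gene counts of this comparison left out the genes of the rule and the 6 monocyte genes. Between members and interferon-response monocytes, 958 of 2077 genes (46.1%) were at least 2-fold apart in control and 930 of 1963 (47.4%) in OTM, so that a gene 2-fold apart was ordinary in this comparison. Of the interferon-stimulated list, 54 had enough UMIs in control, with 4 higher and 17 lower in members, and 42 in OTM, with 3 higher and 18 lower, so that list genes were 2-fold apart about as often as all genes. The median over all genes was itself shifted, at a log2 ratio of -0.54 in control and -0.61 in OTM, and S100a8 and S100a9 alone had a median share of 23.81% of the UMIs of control members against 0.4542% in control interferon-response monocytes, a measure that the rules for both groups used. Of the genes 2-fold apart, 236 were higher and 722 lower in members of control and 194 and 736 in OTM, but 423 and 420, and 387 and 372, when the median gene was scaled to equality. The interferon list then gave 7 higher and 13 lower in control and 5 and 12 in OTM, with a median log2 ratio of -0.19 in both. Samd9l, an antiviral growth inhibitor, was higher in members (269.2 against 79.44 CPM in control, 128.2 against 26.64 in OTM), as was Oas3 (157.3 against 76.39 and 91 against 42.63). Ifi204 and Mnda, DNA-binding genes of 1 cluster, were lower, with Ifi204 at 54.45 against 348.3 CPM in control and 41.36 against 253.1 in OTM, and Mnda at 66.54 against 317.8 and 28.96 against 266.4. Irf7 stood at 314.6 against 495 CPM in control, a log2 ratio of -0.65 and so near the median gene, and at 169.6 against 437 in OTM (-1.35). Isg15, which the rule set in both groups, was at 1794 against 1491 CPM in control and 1514 against 1279 in OTM.

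Among the genes farthest apart between members and interferon-response monocytes, Retnlg was 25.67-fold higher in members of control (36400 against 1418 CPM) and 45.07-fold higher in OTM (42874 against 951.2). Ly6g was 39.35-fold higher in control, and in OTM no Ly6g UMI was found among 375321 monocyte UMIs, which allows up to 9.829 CPM against 430.2 in members. Il1f9, an interleukin-1 family cytokine gene, was 10.75-fold and 55.04-fold higher, and Mmp9, the granule gelatinase, 15.91-fold and 31.24-fold. The stefin genes BC100530 and Gm5483 and the receptor genes Mrgpra2a and Mrgpra2b were also among the 8 highest. Crip1 was 7.872-fold and 6.377-fold lower in members, Tmsb10, an actin-binding peptide gene, 7.337-fold and 5.32-fold, S100a4 8.194-fold and 5.277-fold, and Ms4a4c 5.903-fold and 4.66-fold. AW112010, Mrpl52 and the list genes Ifi204 and Mnda completed the 8 lowest.

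Within members, OTM was compared with control. Of 1603 genes with enough UMIs, 84 (5.24%) were at least 2-fold higher in OTM and 115 (7.17%) at least 2-fold lower. Of 37 interferon-stimulated list genes, 3 were higher (Gbp2, Ifitm2 and Ifitm1) and 11 lower, with a median log2 ratio of -0.53 against -0.0586 over all genes. In other mature neutrophils the same list gave 5 higher and 1 lower of 50, with a median of 0.12 against 0.0275 over all genes, of which 5.75% were higher and 5.16% lower. The lower genes in members included Tor1aip1, Mndal, Ube2l6, Fcgr1, Samd9l, Bst2, Xaf1, Ifi35, Ifi27l2a and Ifit3b. Rule genes, given as a description, stood at ratios of 0.844 for Isg15 (0.7389 to 0.9631), 0.5835 for Ifit1, 0.3396 for Rsad2 and 0.1671 for Ifit3 (0.0806 to 0.3136).

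Ifi27l2a stood at 2614 CPM in OTM members and 6978 in control members, 2.669-fold lower (2.443 to 2.919), while in other mature neutrophils it was 1.265-fold lower. Slfn4 was 2.738-fold lower in members and 1.853-fold lower in other mature neutrophils. Gm13822 was 4.794-fold lower in members (2.905 to 8.368) and 1.149-fold lower in other mature neutrophils, with an interval that included 1. Ly6c2 was 3.198-fold lower in members (2.641 to 3.897), at 541.9 against 1733 CPM, and 1.107-fold lower in other mature neutrophils. Lst1, a leukocyte-specific transcript gene, was lower in both groups to a similar degree (2.435-fold and 2.263-fold), and Gngt2, a G-protein subunit gene, 3.026-fold and 1.633-fold. Hba-a1 and Hbb-bs were the other genes of the 8 lowest, and both were also lower in other mature neutrophils of OTM, 4.224-fold and 3.96-fold.

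Each of the 8 highest genes in OTM members was also higher in the other mature neutrophils of OTM than in those of control. Stfa2, a stefin that inhibits cysteine proteases, stood at 1109 CPM in OTM members and 87.72 in control members (12.64-fold, 8.599 to 19.24), and at 725.1 and 148.4 in other mature neutrophils (4.886-fold, 4.146 to 5.792). The control level rested on 29 UMIs in 7 of 108 members, 55.17% of them in 1 barcode. All 6 stefin genes with enough UMIs were at least 2-fold higher in OTM members, beside 5.24% of all genes. In other mature neutrophils 4 of 7 were higher and 1 (Stfa1) lower, beside 5.75% and 5.16% of all genes. Stefin genes have close copies, so the division of reads among them is uncertain, but their summed share had a median of 1.306% in OTM members and 0.1116% in control members, against 0.5441% and 0.1795% in other mature neutrophils. Asprv1, an aspartic protease gene, was 5.847-fold higher in members and 5.583-fold in other mature neutrophils. Ifitm1 was 5.659-fold and 7.06-fold higher, Chil3, a chitinase-like protein gene, 4.475-fold and 5.959-fold, and Wfdc17, an antiprotease-like gene, 4.397-fold and 3.237-fold. Fpr1, the receptor for bacterial formyl peptides, was 4.281-fold and 2.601-fold higher, and BC100530 5.043-fold and 3.307-fold. Cxcl1, a neutrophil-drawing chemokine gene, was 4.938-fold higher in members and 1.794-fold in other mature neutrophils, but 48.46% of its OTM member UMIs came from 1 barcode, and it was lower in OTM members without barcodes that reached 0.1% in the monocyte genes.

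Of 37 mature neutrophil genes, 11 were at least 2-fold higher in OTM members and 1 (Cxcr4) lower, beside 5.24% and 7.17% of all genes. Their median log2 ratio was 0.37, against -0.0586 over all genes. In other mature neutrophils 8 of 39 were higher and 2 lower, with a median of 0.27, where 5.75% of all genes were higher and 5.16% lower. Cxcr4, the receptor that holds neutrophils in the marrow, stood at 182 CPM in OTM members and 411.4 in control members, and at 94.13 and 271.6 in other mature neutrophils. Of 16 cytokine and chemokine genes with enough UMIs, Il1a, Il1b, Cxcl3, Cxcl1 and Tnf were at least 2-fold higher in OTM members, beside 5.24% of all genes. The limits of the Cxcl1 value are given above. Il1a stood at 248.2 and 42.35 CPM in OTM and control members, and at 272.1 and 36.4 in other mature neutrophils, and Tnf at 206.8 and 93.77 and at 134.3 and 58.8. Beside the same 5.75% and 5.16% of all genes, 7 of 22 genes of this list were higher and 1 lower in other mature neutrophils, with Il1a, Il1b and Tnf among the higher.

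**Figure D5:**
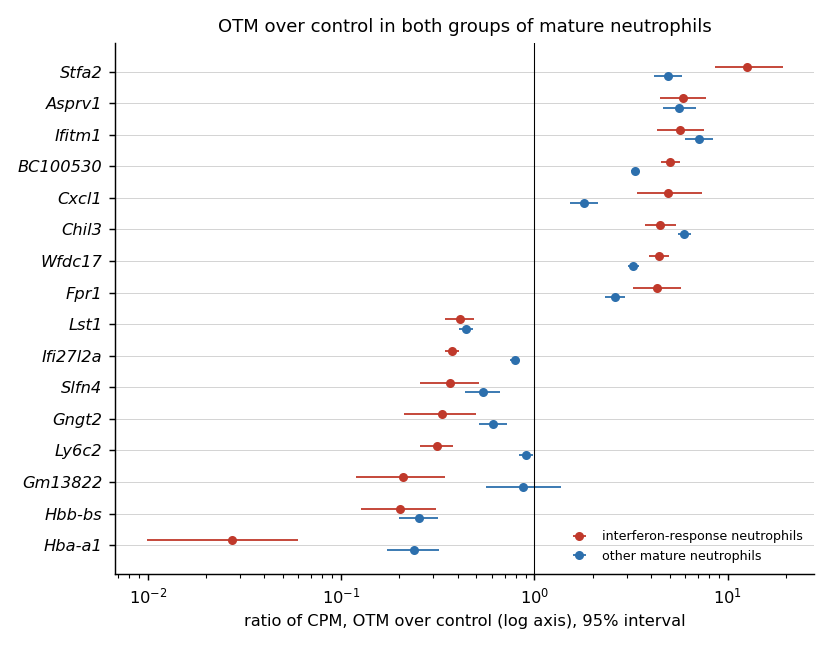
Points give the ratio of CPM, OTM over control (log axis), of the 16 named genes in members and in other mature neutrophils, with exact 95% counting intervals. Stfa2, at 12.64 in members and 4.886 in other mature neutrophils, lies farthest right, and Ly6c2, Gm13822 and Ifi27l2a lie farther left in members than in other mature neutrophils.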

How the data were processed

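F4/80+CD11b+ cells sorted from alveolar bone had been made into 10x 3′ libraries. Per the labels and the study's methods, the authors ran Cell Ranger 3.0.0 on the mm10 reference and deposited 1 table of UMI counts per gene and barcode for each condition, holding 2863 barcodes (14620877 UMIs) in control and 2058 (16500733) in OTM, fewer than the cell numbers the study states. The authors' own analysis used Seurat 3.0.0, of which no result was used.

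Barcodes with at least 200 genes and at most 5% mitochondrial UMIs were kept. The members and the gene lists were chosen with earlier results of these data known. The 4 interferon genes of the rule stayed out of the lists. Every gene that the rule names stayed out of the counts of genes past the 2-fold threshold. In the comparison with interferon-response monocytes the 6 monocyte genes stayed out as well. Several lists share genes, such as Irf7, Irf9, Psmb9 and Ifitm1. UMI counts were summed per group, with exact Poisson intervals for levels, exact conditional binomial intervals for ratios and Clopper-Pearson intervals for shares of barcodes, all at 95%. Genes with at least 30 UMIs over both groups were compared, with a 2-fold threshold. Log2 ratios carry 0.5 added UMIs. Named genes were the rule's genes and Slfn4, the 15 highest by the smaller ratio of the 2 libraries, the 10 lowest by the larger, and, for the other comparisons, the 8 highest and 8 lowest with at least 100 UMIs. List genes and genes singled out in the text were chosen after their values were seen. Promoter windows of 250 bases before to 50 after gene starts came from RefSeq (GRCm38.p6), matched by symbol. Scrublet was run through scanpy 1.11.5, but called too few barcodes to have worked, so doublets were not removed. The scripts ran in Python 3.11.15 with numpy 2.4.6, scipy 1.17.1 and pandas 2.3.3, and were tested on simulated data. Alternatives varied the filters, the thresholds of the rule, the minimum of UMIs, the scaling and the depth. A gene of the lists was counted in them but is not reported here by name.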

Additional observations from a re-analysis of the deposited data

Results flagged for a closer look

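Among 1201 genes with at least 100 UMIs in each library, 15 had ratios of members over other mature neutrophils whose counting intervals lay on opposite sides of 1 in control and OTM, and 6 of them were at least 1.5-fold from 1 in both libraries. With 1 library per condition, the difference between the libraries was not tested for any of them.

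Saa3, an acute-phase gene, had a ratio of 2.932 in control and 0.5627 in OTM. Ly6c2 had a ratio of 1.887 in control and 0.6533 in OTM. Its opposite directions lay in barcodes at 0.1% or more of the 6 monocyte genes, of which it is 1. There it stood at 2454 CPM in members and 1572 in other mature neutrophils of control, and at 1019 and 1311 in OTM. In barcodes under 0.1% it was lower in members of both libraries, at 257.9 against 315.8 CPM in control and 252.5 against 311.4 in OTM. AW112010, an interferon-induced transcript of myeloid and lymphoid cells, had 1.743 in control and 0.5467 in OTM. Mgst2, a glutathione transferase gene, had 1.621 in control and 0.4623 in OTM. In the opposite direction, Cxcl1 had 0.6376 in control and 1.755 in OTM. Of its member UMIs, 41.67% in control and 48.46% in OTM came from 1 barcode. Stfa2 had 0.5911 in control and 1.529 in OTM, with 55.17% of its control member UMIs in 1 barcode.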

How the results depend on the processing

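No paired analysis was possible because each condition is 1 library. Of the share and count values under the alternatives, 100 kept their size and 32 moved; of the values for named genes, 1143 kept their size, 212 moved and 17 turned direction. A count kept its size within 1.5-fold of the reported one, and a share or a gene's log2 ratio within the 95% counting interval of the reported value. The cause was not tested in any case. In the report, 23.38% and 11.81% of mature neutrophils were members, 127 and 144 genes were at least 2-fold higher in control and OTM (29 and 16 of the interferon list), 958 and 930 were apart from interferon-response monocytes, and 199 were apart between OTM and control.

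Control shares were above OTM shares under each rule tried. With an interferon threshold of 0.2% they were 14.5% and 3.376%, with 536 and 398 genes apart from monocytes and 368 higher in OTM. At 0.05% they were 34.42% and 24.26%, with 1550 and 1743 apart and 78 higher in OTM. Without barcodes at 0.1% of the 6 monocyte genes the control share was 16%, the interferon list gave 10 and 9, OTM gave 83 higher, and 125 were apart between libraries. Reading the filter as 200 genes per 1000 UMIs gave 87 higher in OTM and 10 of the list. A minimum of 10 UMIs gave 445 and 486 higher, 44 of the list in control, 2134 and 2045 apart from monocytes, and 740 between libraries. A minimum of 100 gave 25 and 27 higher, 11 and 7 of the list, 394 and 381 apart, and 53 between libraries. Without the highest barcode of each gene, an alternative added after seeing the data, 68 and 43 were higher.

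Log2 ratios that turned direction were mostly of genes with few UMIs or 1 leading barcode. For Ly6a they were -1.61 (control) and -2.14 (OTM) at 0.2%, -1.27 (control) with S100a8 and S100a9 at 10%, -0.566 (OTM) without barcodes at 0.1% of the 6 monocyte genes, and -0.267 and -1.18 without those at 0.1% of 5, Ly6c2 set aside (added after seeing the data). Cxcl1 in OTM over control stood at -1.62, -2.79 and -2.33 in the 0.2%, 6-gene and 5-gene settings. Without the 6-gene barcodes Blvrb in control was -1.1, and in OTM 2810417H13Rik was 0.832 and F13a1 0.748, or 0.794 and 0.306 with 5 genes. Cyfip2 in OTM was 0.0534 at 0.05%, and after thinning before the rule Irf9 in OTM was -0.296 and Ppp2r5c 0.32. Depth limits membership itself, since the shallowest members at the threshold carry 2 or 3 UMIs of the rule's genes.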

Other observations

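Further gene groups gave the following values in members against other mature neutrophils, where 4.37% of all genes were at least 2-fold higher and 3.06% lower in control, and 3.89% and 10.6% in OTM. Of 26 immediate early and NF-kB genes, Relb was at least 2-fold higher and Nfkb2 lower in control, and Atf3 higher in OTM, with median log2 ratios of 0.47 and 0.33. Relb had 17 and Nfkb2 6 UMIs in control members. Atf3 had 22 UMIs in 8 of 56 OTM members, 40.91% of them in 1 barcode. Of genes for apoptosis and survival, Casp1, which matures interleukin-1 beta, was at least 2-fold higher in control (48.4 against 18.67 CPM, 1 of 13 with enough UMIs), and Bcl2l1, an inhibitor of apoptosis, in OTM (57.91 against 24.02 CPM, 1 of 16), where Bak1 was lower. The Casp1 value rested on 16 member UMIs and that of Bcl2l1 on 14. Of neutrophil precursor genes, 0 of 13 were 2-fold apart in control, and 3 of 15 were lower in OTM (Stmn1, Itgb2l and Ms4a3). Heat shock genes gave 0 of 6 in control and 1 of 7, Hspa1a, in OTM, where 78.57% of its 14 member UMIs came from 1 barcode. Osteoclast and bone cell markers gave 1 of 3 in control, Acp5, on 16 member UMIs, and 0 of 2 in OTM.

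Between OTM and control members, 5.24% of all genes were at least 2-fold higher in OTM and 7.17% lower. Of 10 genes of the apoptosis list with enough UMIs, 1 was higher, Casp4, the sensor of intracellular lipopolysaccharide. Of 24 immediate early and NF-kB genes, 2 were lower, Fosb and Egr1. Both were also lower in the other mature neutrophils of OTM.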
